A study of Homo sapiens with 18 samples.

Results

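Methyl groups on cytosine are written, copied, read and removed by a small set of nuclear proteins, and the RNA of 10 genes that encode them was followed in 2 leukaemia cell lines. The genes were chosen by name and not by their values, though with earlier results of these data known. They are the DNA methyltransferases DNMT1, DNMT3A and DNMT3B and the hemimethylated-DNA readers UHRF1 and UHRF2. The others are the methylcytosine dioxygenases TET1, TET2 and TET3 and the glycosylases TDG and MBD4. All 10 were listed in both lines, among 17110 genes for HL-60 and 17475 for MOLM-13, and all 10 passed the filter on low values in both. That filter was mild, since it kept 17046 genes in HL-60 and all 17475 in MOLM-13.

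The 18 samples form 6 groups of 3 replicates, in which HL-60 or MOLM-13 cells spent 48 h with the solvent dimethyl sulfoxide (DMSO), with decitabine (DAC) or with NTX-301, a compound developed as a DNMT1 inhibitor. HL-60 is a promyelocytic acute myeloid leukaemia line without functional p53, and MOLM-13 is a monocytic line with a KMT2A rearrangement and a FLT3 internal tandem duplication. The labels state a drug concentration of 30 nM in HL-60 cultures and of 15 nM in those of MOLM-13, in a wording that may cover both drugs or DAC alone, so that a matched dose of the 2 drugs is not given and the effects of dose and line cannot be told apart. Each disease type is modelled by 1 established line, and controls received the solvent only.

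Every value is the deposited log2 of a normalized abundance, on which a difference of 1 is a 2-fold change. The 2 lines were taken as normalized apart, since their lists of genes differ and the method is not given. A level in HL-60 is therefore not set against a level in MOLM-13, and read depth is unknown. The 5 promyelocytic markers AZU1, CTSG, ELANE, MPO and PRTN3 had mean levels from 12.78 to 18.57 in HL-60, and the 6 markers chosen for MOLM-13 (CD33, CSF1R, FLT3, HOXA9, LYZ and MEIS1) from 10.12 to 16.77 there. Most markers did not separate the lines by being listed or not. The 5 promyelocytic markers were also listed in MOLM-13, at 13.25 to 16.92. CD33, CSF1R, FLT3 and LYZ were listed in HL-60 at 6.77 to 12.34, while HOXA9 and MEIS1 were not listed there. Of the 17 markers of T, B, erythroid, epithelial and fibroblast cells, 2 were listed in HL-60 and 6 in MOLM-13, at mean levels of 9.36 or less. Differences were tested with limma, and a gene was called changed at a Benjamini-Hochberg adjusted p under 0.05 over all genes tested in that comparison. The labels speak of triplicates and name no separate cultures, so p-values measure the spread between these samples, which may be technical.

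In dividing cells DNMT1 copies the methylation pattern onto the new DNA strand behind the replication fork, where UHRF1 recognises hemimethylated CpG and recruits it through ubiquitin marks on histone H3. DNMT3A and DNMT3B methylate sites that carried no mark, the TET enzymes oxidise 5-methylcytosine stepwise, and TDG and MBD4 cut out oxidised or deaminated bases for base excision repair. DNMT3A and TET2 are among the genes most often mutated in acute myeloid leukaemia. DAC enters DNA during replication and holds DNMT1 in a covalent complex that is degraded as a protein, a loss that RNA levels do not show.

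The start sites of DNMT1 and UHRF1, the members that moved furthest together in MOLM-13, and of DNMT3B, the member that moved furthest in HL-60, are shown for their CpG content and their E2F words. The sequences are from RefSeq on GRCh38.p14 and run 5′ to 3′ on the gene's strand, from 130 bases before to 20 bases after an annotated start site: DNMT1 at chr19:10194934-10195083 (minus strand), UHRF1 at chr19:4909371-4909520 (plus strand) and DNMT3B at chr20:32779722-32779871 (plus strand). Capitals mark an E2F word, the site family bound by the E2F factors that drive S phase genes. Only UHRF1 among these genes had several windows, and the one printed was picked by number of E2F words and then by position. A word in the printed UHRF1 sequence therefore follows from that choice. The files do not tell which start site was used.
DNMT1: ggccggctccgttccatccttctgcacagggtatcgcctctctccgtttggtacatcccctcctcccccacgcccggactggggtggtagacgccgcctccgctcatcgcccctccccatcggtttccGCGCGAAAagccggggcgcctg
UHRF1: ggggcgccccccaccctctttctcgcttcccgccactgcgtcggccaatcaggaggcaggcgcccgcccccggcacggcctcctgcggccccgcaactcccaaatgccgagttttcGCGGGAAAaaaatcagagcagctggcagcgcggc
DNMT3B: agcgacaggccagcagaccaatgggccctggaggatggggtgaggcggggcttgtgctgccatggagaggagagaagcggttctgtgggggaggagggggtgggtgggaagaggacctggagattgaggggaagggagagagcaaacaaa

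The E2F words searched were TTTCCCGC, TTTCGCGC, TTTGCCGC and TTTGGCGC on both strands, and each of them holds a CpG, so a match also adds to the CpG count. All 10 genes had at least 1 RefSeq window of 300 bases, 21 windows in all. DNMT1 had 1 word, GCGCGAAA, from position -2 relative to the start site. UHRF1 had GCGGGAAA from position -14 at the start site shown and TTTCGCGC from position -160 at another of its start sites. The remaining UHRF1 window had no word and held 46 CpG. The other 8 genes had none. Over all 27305 genes 3.99% had a word, and among 17 S phase genes with a window 10 had one. The 300-base window of DNMT1 held 30 CpG and that of UHRF1 shown above 36, against a median of 26 over the 21 windows and 14 over all 35116 windows. The only window of DNMT3B lies at an internal start of the gene, 17467 bases from its annotated 5′ end, and held 3 CpG. These counts describe the letters in these windows and say nothing of binding or methylation in the samples.

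MOLM-13 showed lower RNA of the copying machinery with either drug. DNMT1 and UHRF1 fell with DAC and fell with NTX-301, DNMT3B, TDG and MBD4 also fell with each drug, and TET2 alone of the 10 rose with each. With DAC 7 of the 10 genes were called, 1 higher and 6 lower, against 36.6% of all 17475 genes tested (15.4% higher and 21.2% lower). With NTX-301 6 were called, 1 higher and 5 lower, against 45.1% of all genes (20.3% higher and 24.8% lower). Of genes with a mean of at least 6, which all 10 reached, 48.7% were called with DAC and 57.6% with NTX-301. Quantile normalization turned the NTX-301 split to 3 higher and 4 lower. Both comparisons use the same 3 DMSO samples. In cultures measured in bulk, fewer cells of a kind and less RNA per cell cannot be told apart.

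In HL-60 TET3 and MBD4 fell with either drug, DNMT3B rose with NTX-301 by the largest amount of any of the 10 genes, and the differences of DNMT1 and UHRF1 were under 0.1 in size. DNMT1, DNMT3B, UHRF1, TDG and MBD4 were called with NTX-301 in both lines, DNMT1 and DNMT3B with a rise in HL-60 and a fall in MOLM-13. The DNMT1 rise and the DNMT3B fall were not called under every alternative. With DAC 3 of 10 were called, all lower, against 24.2% of 17046 genes tested (11.6% higher and 12.6% lower). With NTX-301 6 were called, 2 higher and 4 lower, against 37.4% of all genes (18.3% higher and 19.2% lower). Quantile normalization turned the last split to 3 higher and 2 lower, and centring each sample on its median to 1 higher and 5 lower. These 2 comparisons also share their DMSO samples. Of HL-60 genes with a mean of at least 6, which all 10 reached, 33.8% were called with DAC and 48.6% with NTX-301. Median centring moved the split over all genes as well, to 2310 higher and 5400 lower with NTX-301 in HL-60, 1960 and 5731 with DAC in MOLM-13, and 2735 and 5760 with NTX-301 in MOLM-13.

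**Figure D1:**
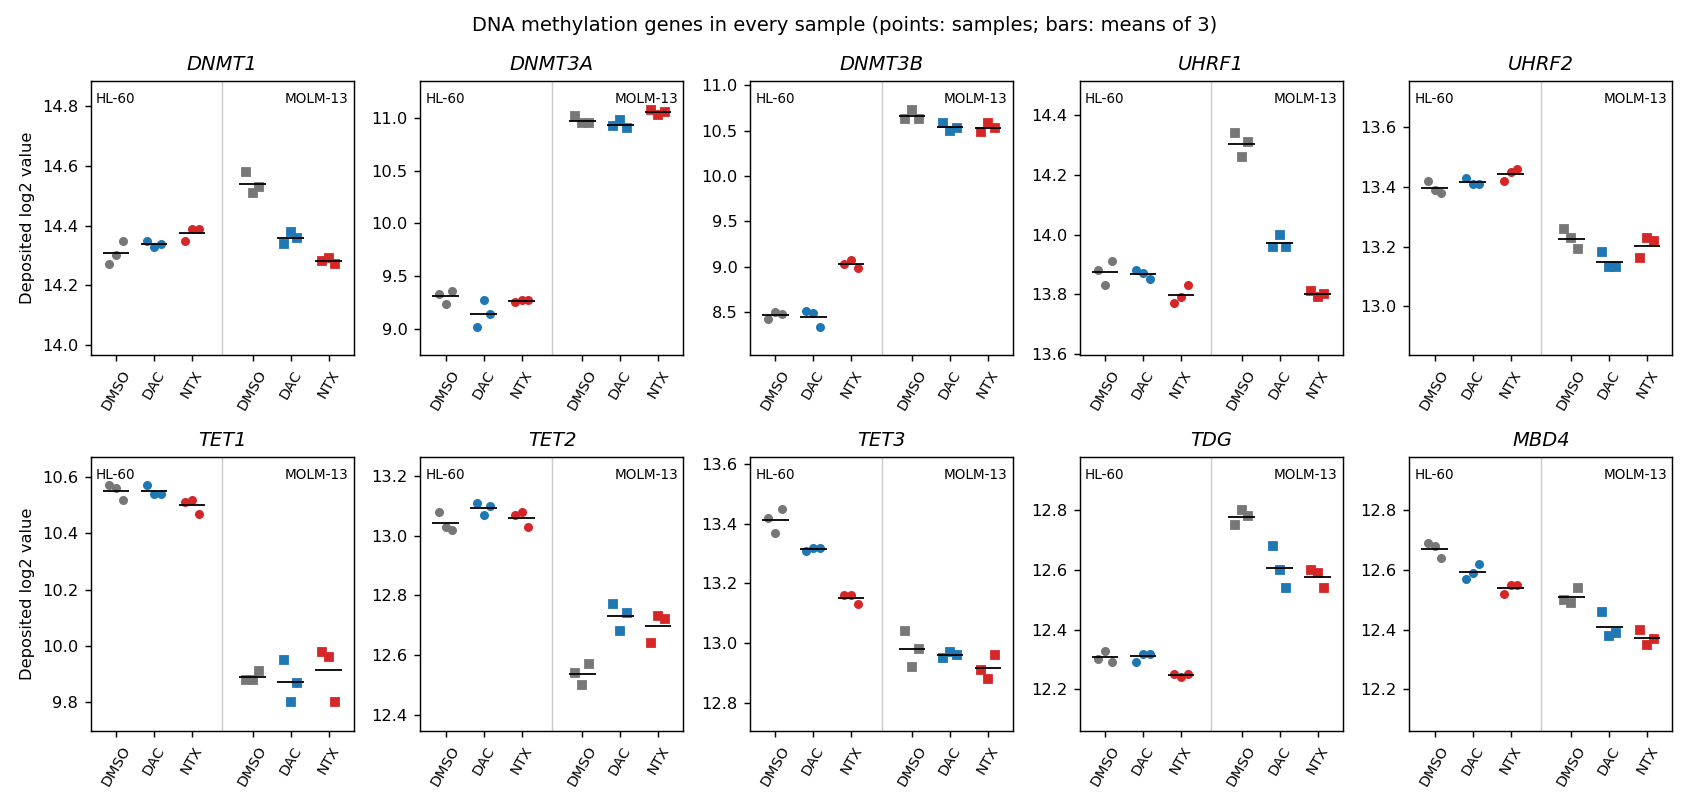
Deposited log2 value (vertical axis, its own range in each panel) of the 10 genes in every sample, with HL-60 as circles on the left of each panel, MOLM-13 as squares on the right, and horizontal bars for means of 3. The MOLM-13 squares of UHRF1 step down from 14.26 to 14.34 in DMSO to 13.79 to 13.81 with NTX-301, and the HL-60 circles of DNMT3B step up with NTX-301 only, to between 8.99 and 9.07. Levels of the 2 lines were taken as normalized apart.

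DNMT1, the maintenance methyltransferase, had log2 values of 14.58, 14.51 and 14.53 in MOLM-13 with DMSO, 14.34, 14.38 and 14.36 with DAC, and 14.28, 14.29 and 14.27 with NTX-301. All 6 drug samples lay below all 3 DMSO samples, and the 3 NTX-301 samples lay below the 3 DAC samples. Against DMSO its log2 difference was -0.18 (SE 0.023, limma adjusted p = 0.000112) with DAC and -0.26 (SE 0.023, limma adjusted p = 5.81e-06) with NTX-301. The linear value thus fell by 11.7% with DAC and fell by 16.4% with NTX-301. Quantile normalization reduced these differences to -0.08 and -0.13, both still called, the largest shift that any scaling gave them. In HL-60 the DNMT1 values were 14.27, 14.30 and 14.35 with DMSO, 14.35, 14.33 and 14.34 with DAC, and 14.35, 14.39 and 14.39 with NTX-301, so that the groups met or overlapped. There the difference with DAC was 0.03 (limma adjusted p = 0.36). With NTX-301 it was 0.064 (limma adjusted p = 0.0332), a rise of 4.56% that was no longer called after leaving out any 1 of DMSO replicates 1 and 2 and NTX-301 replicates 2 and 3, or after median centring (0.036), or in the fits without a trend (adjusted p = 0.0519) or of the groups compared alone (0.0554).

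DNMT3A, a de novo methyltransferase, stood at 9.33, 9.23 and 9.36 in HL-60 with DMSO, 9.02, 9.27 and 9.14 with DAC, and 9.25, 9.27 and 9.27 with NTX-301. DAC replicate 2 lay above DMSO replicate 2, so the groups overlapped. The DAC difference of -0.16 (SE 0.053, limma adjusted p = 0.0384) was called, but it was lost without DMSO replicate 1 or 3 and without DAC replicate 1 or 3, and it was -0.10 without DAC replicate 1. In MOLM-13 the values were 11.02, 10.95 and 10.95 with DMSO, 10.93, 10.98 and 10.91 with DAC, and 11.08, 11.03 and 11.06 with NTX-301. All 3 NTX-301 samples were above all DMSO samples, with a difference of 0.086 (SE 0.033) that just missed the threshold (limma adjusted p = 0.0529). It was called at 0.11 without DMSO replicate 1 and at 0.12 after quantile normalization.

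DNMT3B, the second de novo enzyme, gave the largest change of the 10 genes. Its HL-60 values were 8.42, 8.50 and 8.48 with DMSO, 8.51, 8.49 and 8.34 with DAC, and 9.03, 9.07 and 8.99 with NTX-301. The NTX-301 samples stood apart above the other 6, while the DAC and DMSO samples overlapped. NTX-301 raised it by 0.56 over DMSO (SE 0.046, limma adjusted p = 4.26e-07), a 1.48-fold rise, whereas DAC gave -0.021 (SE 0.046, limma adjusted p = 0.785). In MOLM-13 it stood at 10.63, 10.73 and 10.63 with DMSO, 10.58, 10.50 and 10.53 with DAC, and 10.49, 10.58 and 10.53 with NTX-301. Both drug groups lay below DMSO, with differences of -0.13 each (limma adjusted p = 0.0314 with DAC and 0.0219 with NTX-301). Neither of these falls was called without DMSO replicate 2, where they were -0.091 and -0.096, nor without either of 2 drug replicates: replicates 2 and 3 for DAC, replicates 1 and 3 for NTX-301.

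UHRF1, which brings DNMT1 to hemimethylated DNA, showed the largest fall of the 10 genes. In MOLM-13 its values were 14.34, 14.26 and 14.31 with DMSO, 13.96, 14.00 and 13.96 with DAC, and 13.81, 13.79 and 13.80 with NTX-301. The 3 groups did not overlap, with DMSO highest and NTX-301 lowest. The difference from DMSO was -0.33 with DAC (SE 0.025, limma adjusted p = 3.67e-06) and -0.51 with NTX-301 (SE 0.025, limma adjusted p = 1.64e-07). The linear value fell by 20.4% with DAC and fell by 29.6% with NTX-301. In HL-60 the values were 13.88, 13.83 and 13.91 with DMSO, 13.88, 13.87 and 13.85 with DAC, and 13.77, 13.79 and 13.83 with NTX-301. NTX-301 replicate 3 and DMSO replicate 2 met at 13.83 in that line. The NTX-301 difference there was -0.079 (limma adjusted p = 0.0191), which was lost without DMSO replicate 1 or 3, without NTX-301 replicate 1 or 2, and after quantile normalization (-0.039). With DAC it was -0.0079 (limma adjusted p = 0.851).

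A pseudogene of UHRF1 on another chromosome, LOC728688, was listed with a level of its own, and reads may have been shared between the near-identical copies, so the UHRF1 values carry that uncertainty. The copy held a mean of 12.4% to 12.6% of the summed linear value of the pair in the HL-60 groups and 13.5% to 13.7% in the MOLM-13 groups. Its level in the DMSO, DAC and NTX-301 groups of MOLM-13 was 11.65 ± 0.042, 11.30 ± 0.049 and 11.14 ± 0.038 (SD, n = 3). Summing the copies left every UHRF1 call of a drug against DMSO and of drug against drug in place, and it ended the call of the line difference for the step between the drugs (-0.10, limma adjusted p = 0.051).

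UHRF2, the UHRF1 paralogue, moved little. In MOLM-13 it stood at 13.26, 13.23 and 13.19 with DMSO, 13.18, 13.13 and 13.13 with DAC, and 13.16, 13.23 and 13.22 with NTX-301. The DAC samples lay just below the DMSO samples, and the NTX-301 samples overlapped them. The DAC difference of -0.08 (SE 0.028, limma adjusted p = 0.0402) was the least stable call in this line: it was lost without DMSO replicate 1 or 2, without DAC replicate 2 or 3 and without NTX-301 replicate 3, and became 0.0027 after quantile normalization. With NTX-301 the difference was -0.027 (limma adjusted p = 0.455), which quantile normalization turned to 0.078 (adjusted p = 0.0411). In HL-60 the 9 values ran from 13.38 to 13.46, and the NTX-301 difference of 0.049 was not called (limma adjusted p = 0.0676), though it was in the fit without a trend (adjusted p = 0.0424) and after quantile normalization (0.073).

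Among the dioxygenases, each line had 1 member that changed with both drugs, and it was not the same one. TET3 in HL-60 stood at 13.42, 13.37 and 13.45 with DMSO, 13.31, 13.32 and 13.32 with DAC, and 13.16, 13.16 and 13.13 with NTX-301. The 3 groups did not overlap and stepped down in that order. TET3 fell by 0.097 on the log2 scale with DAC (SE 0.022, limma adjusted p = 0.00605) and fell by 0.26 with NTX-301 (SE 0.022, limma adjusted p = 5.89e-07), which are linear values that fell by 6.51% and 16.7%. In MOLM-13 it stood at 13.04, 12.92 and 12.98 with DMSO, 12.95, 12.97 and 12.96 with DAC, and 12.91, 12.88 and 12.96 with NTX-301, and all 3 groups overlapped. Its differences there were -0.017 with DAC (limma adjusted p = 0.722) and -0.057 with NTX-301 (limma adjusted p = 0.163), and quantile normalization turned both to positive values of 0.064 and 0.042. The NTX-301 fall was called after median centring (-0.087, limma adjusted p = 0.037) and without DMSO replicate 2 (-0.088, limma adjusted p = 0.0415). TET3 shares its locus with BOLA3, whose mean level was 10.38 in HL-60 samples and 10.66 in MOLM-13 samples, and the use of strand in counting is not given in the sources used here.

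TET2, the TET gene most often mutated in myeloid leukaemia, had values of 12.54, 12.50 and 12.57 in MOLM-13 with DMSO, 12.77, 12.68 and 12.74 with DAC, and 12.64, 12.73 and 12.72 with NTX-301. All 6 drug samples were above all 3 DMSO samples, and the 2 drug groups overlapped. TET2 rose by 0.19 in the DAC group (SE 0.033, limma adjusted p = 0.000786) and by 0.16 in the NTX-301 group (SE 0.033, limma adjusted p = 0.00184), or 14.2% and 11.8%, and was the only 1 of the 10 genes called higher in this line on the deposited values. Quantile normalization gave 0.26 and 0.24. In HL-60 its 9 values ran from 13.02 to 13.11, with differences of 0.048 with DAC (limma adjusted p = 0.149) and 0.018 with NTX-301 (limma adjusted p = 0.589), the latter -0.01 after median centring.

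TET1 was called in no comparison of a drug with DMSO or of drug with drug. Its HL-60 values ran from 10.47 to 10.57, and those of NTX-301 (10.51, 10.52 and 10.47) lay at or below the lowest DMSO value of 10.52, with a difference of -0.056 (limma adjusted p = 0.137) that was called only after median centring (-0.085). In MOLM-13 the drug samples were more scattered than the controls, with SDs of 0.076 with DAC and 0.097 with NTX-301 against 0.016 with DMSO.

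The glycosylases fell in MOLM-13 with each drug. TDG, which removes oxidised cytosines that the TET enzymes leave, stood at 12.75, 12.80 and 12.78 with DMSO, 12.68, 12.60 and 12.54 with DAC, and 12.60, 12.59 and 12.54 with NTX-301. Every drug sample lay below every DMSO sample. TDG fell by 11.3% with DAC (log2 difference -0.17, SE 0.033, limma adjusted p = 0.0018) and fell by 12.9% with NTX-301 (log2 difference -0.20, limma adjusted p = 0.000476). Quantile normalization reduced the log2 differences to -0.10 and -0.11, both still called. In HL-60 TDG stood at 12.30, 12.33 and 12.29 with DMSO, 12.29, 12.32 and 12.32 with DAC, and 12.25, 12.24 and 12.25 with NTX-301. The NTX-301 samples lay below the rest, by -0.06 against DMSO (limma adjusted p = 0.0381), which is at the edge of the test: without DMSO replicate 1 or 2, or any 1 of the NTX-301 replicates, it was not called, nor after quantile normalization (-0.027).

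MBD4, which removes thymine or uracil mispaired at methylated CpG, fell in all 4 comparisons with DMSO. In HL-60 it stood at 12.69, 12.68 and 12.64 with DMSO, 12.57, 12.59 and 12.62 with DAC, and 12.52, 12.55 and 12.55 with NTX-301. In MOLM-13 it stood at 12.50, 12.49 and 12.54 with DMSO, 12.46, 12.38 and 12.39 with DAC, and 12.40, 12.35 and 12.37 with NTX-301. Drug and DMSO samples did not overlap in either line. The differences were -0.079 with DAC and -0.13 with NTX-301 in HL-60 (limma adjusted p = 0.026 and 0.000622), and -0.10 and -0.14 in MOLM-13 (limma adjusted p = 0.0147 and 0.00208). Of the 4, the HL-60 difference with NTX-301 was called under every alternative, while both MOLM-13 differences lost the call after quantile normalization (-0.038 and -0.062). The DAC calls were also lost without any 1 of 4 HL-60 samples (DMSO replicates 1 and 2, DAC replicates 1 and 2) and of 3 MOLM-13 samples (DMSO replicate 3, DAC replicates 2 and 3).

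**Figure D2:**
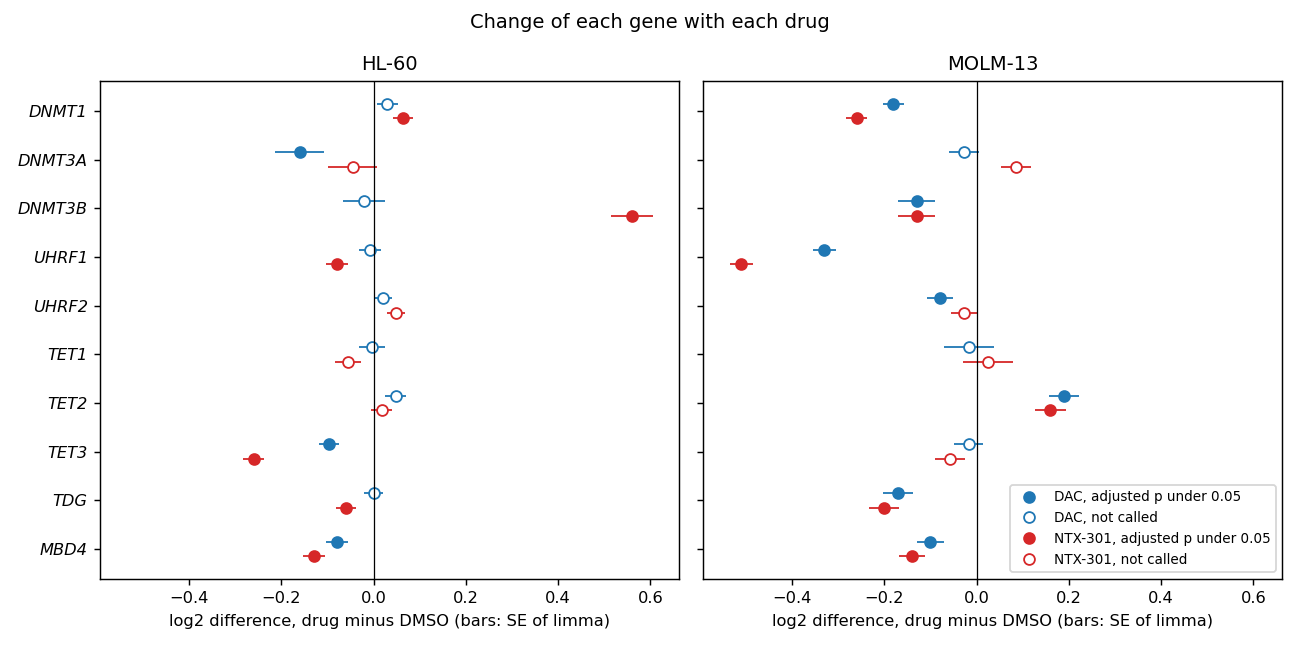
Log2 difference between drug and DMSO (horizontal axis) of the 10 genes in HL-60 (left) and MOLM-13 (right), with DAC in blue, NTX-301 in red, bars for the SE of limma and filled points for an adjusted p under 0.05. DNMT3B with NTX-301 in HL-60 stands alone on the right at 0.56, and UHRF1 with NTX-301 in MOLM-13 is furthest to the left at -0.51.

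The 2 drugs were then set against each other within each line, 10 genes in each of 2 lines, at doses whose match is not given. In HL-60 4 of 10 genes were called, against 30.4% of 17046 genes tested (15.4% higher and 15.0% lower), 1 higher and 3 lower with NTX-301 (2 higher and 1 lower after quantile normalization). Over all genes the split was 1818 higher and 4860 lower after median centring. Of genes with a mean of at least 6, 41.2% were called. DNMT3B was 0.59 higher with NTX-301 than with DAC (95% interval 0.49 to 0.69, limma adjusted p = 5.62e-07) and TET3 had a difference of -0.17 (interval -0.21 to -0.12, limma adjusted p = 6.98e-05). The other calls were small and were not kept when single replicates were left out: UHRF1 at -0.071 (interval -0.12 to -0.019, limma adjusted p = 0.0395) and TDG at -0.06 (interval -0.11 to -0.015, limma adjusted p = 0.046). UHRF1 was not called without any 1 of the 3 DAC replicates or of NTX-301 replicates 1 and 2, and TDG not without any 1 of the 6 drug samples. Of the 6 genes not called, DNMT3A had the widest interval, 0.0038 to 0.23 around 0.12, and it was called at 0.18 without DAC replicate 2. The intervals of the other 5 lay between -0.11 and 0.082. Intervals are limma's and are not adjusted for the number of genes.

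In MOLM-13 UHRF1 was the only one of the 10 called between the drugs, against 7.42% of 17475 genes tested (3.01% higher and 4.41% lower). Of genes with a mean of at least 6, 12.3% were called. The UHRF1 value under NTX-301 was below that under DAC by a log2 difference of -0.18 (95% interval -0.23 to -0.12, limma adjusted p = 0.00246), and the call held in each alternative run. DNMT1 (-0.079, interval -0.13 to -0.028, limma adjusted p = 0.0624) and DNMT3A (0.11, interval 0.041 to 0.19, limma adjusted p = 0.0617) missed the threshold although the drug groups did not overlap. DNMT1 passed it without DMSO replicate 1 and with a stricter filter on low values, and DNMT3A after quantile normalization, which gave 1 gene higher and 1 lower. The DNMT3B interval ran from -0.094 to 0.085, and those of UHRF2, TET1, TET2, TET3, TDG and MBD4 lay between -0.11 and 0.16.

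**Figure D3:**
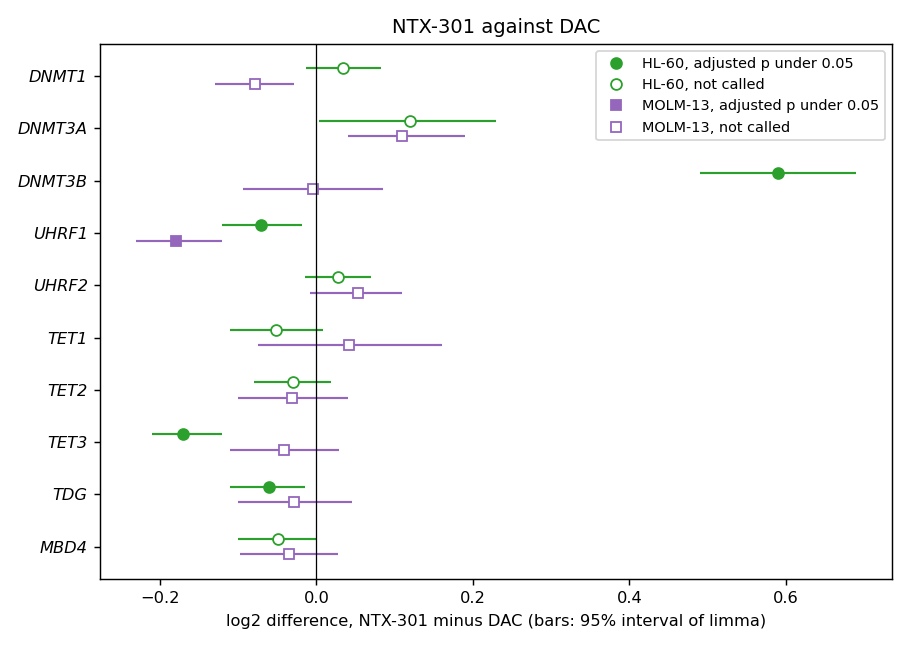
Log2 difference of NTX-301 minus DAC (horizontal axis) for the 10 genes, with HL-60 as green circles, MOLM-13 as purple squares, bars for the 95% interval of limma and filled marks for an adjusted p under 0.05. DNMT3B in HL-60 lies at 0.59, apart from all other marks, and UHRF1 lies at -0.071 in HL-60 and -0.18 in MOLM-13.

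To compare the lines, each drug effect in HL-60 was subtracted from the same effect in MOLM-13, and this difference was tested in 1 fit of the 18 samples. For DAC 5 of 10 genes were called, 1 higher and 4 lower, against 30.0% of 15474 genes tested in both lines (12.1% higher and 17.9% lower); median centring left 4, all lower, and quantile normalization gave 2 higher and 3 lower. For NTX-301 6 were called, 2 higher and 4 lower, against 40.0% of all genes, 17.6% higher and 22.4% lower (3 and 3 members after quantile normalization). For the step from DAC to NTX-301 4 were called, 1 higher and 3 lower, against 17.7% of all genes, 8.33% higher and 9.41% lower (1 and 1 members after median centring, 0 and 3 after quantile normalization). DNMT1 differed by -0.21 (DAC) and -0.32 (NTX-301), and UHRF1 by -0.32 and -0.43 (limma adjusted p from 2.27e-08 to 5.04e-05), and these 4 differences were called under every alternative. DNMT3B differed by -0.70 for NTX-301 (limma adjusted p = 1.07e-07), with a rise in HL-60 and a fall in MOLM-13 that was not called under every alternative. For DAC its difference of -0.10 was not called (limma adjusted p = 0.24). TET3 differed by 0.21 for NTX-301 (limma adjusted p = 0.000337), while its difference of 0.081 for DAC was not called (limma adjusted p = 0.128) except after quantile normalization (0.15) and without MOLM-13 DMSO replicate 1 (0.11). TET2 differed by 0.14 for each drug (limma adjusted p = 0.0112 for DAC and 0.00825 for NTX-301), and the DAC call was lost after median centring (0.11, adjusted p = 0.0654). Over all genes median centring gave 1359 higher and 4382 lower for DAC and 2565 and 978 for the step between the drugs. TDG differed by -0.17 and -0.14 (limma adjusted p = 0.00237 and 0.00776), and the NTX-301 difference was not called after quantile normalization (-0.084, adjusted p = 0.0582). MBD4, with differences of -0.024 and -0.01 (limma adjusted p = 0.659 and 0.853), showed no line difference that the test could call.

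Genes that work beside the 10 were counted from lists chosen by function, with earlier results of these data known. Their counts stand against the shares of all genes called. In HL-60 these were 11.6% higher and 12.6% lower with DAC, and 18.3% and 19.2% with NTX-301. In MOLM-13 they were 15.4% and 21.2% with DAC, and 20.3% and 24.8% with NTX-301. Among genes with a mean of at least 6 the shares called were larger, as given above. DNMT1 and UHRF1 are known to be made mainly in dividing cells, and 20 S phase genes were measured for that reason. In MOLM-13 18 of the 20 fell with DAC (median -0.29) and 18 fell with NTX-301 (median -0.39), and none rose, whereas in HL-60 8 rose with DAC (median 0.038) and 15 with NTX-301 (median 0.14), and none fell. The median over all genes tested lay between 0.00064 and 0.0034 in these 4 comparisons. MCM2 and MCM6, subunits of the replicative helicase, fell by 0.37 and 0.36 with DAC and by 0.48 and 0.49 with NTX-301 in MOLM-13 on the log2 scale, next to UHRF1 at -0.33 and -0.51. E2F2, which drives S phase genes, rose by 0.76 with NTX-301 in HL-60, and RRM2, a subunit of ribonucleotide reductase, by 0.34. In that comparison UHRF1 was at -0.079 and DNMT1 at 0.064, and neither of these calls held under every alternative. For all 20 genes the effect in MOLM-13 was called lower than that in HL-60, for DAC and for NTX-301. Of all genes tested in both lines 17.9% were called lower for DAC and 22.4% for NTX-301. The part of S phase in the DNMT1 and UHRF1 differences was not tested.

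Most partners of maintenance methylation fell in MOLM-13, where 21.2% of all genes were called lower with DAC and 24.8% with NTX-301. Of the 10 genes listed (HELLS, CDCA7, CDCA7L, PCNA, LIG1, USP7, EHMT1, EHMT2, SUV39H1 and PAXIP1) 9 fell with DAC (median -0.17) and 8 with NTX-301 (median -0.21), and none rose. EHMT1 was not called with DAC (-0.0086, limma adjusted p = 0.842) or NTX-301 (0.031, adjusted p = 0.413), nor LIG1 with NTX-301 (-0.064, adjusted p = 0.0583). After quantile normalization 6 fell with each drug and 1 rose with NTX-301. CDCA7, which activates the remodeller HELLS, fell by 0.26 and 0.28 and CDCA7L by 0.33 with DAC, while the histone methyltransferase EHMT2 fell by 0.22 with NTX-301. HL-60 gave a mixed picture, with 1 higher and 4 lower with DAC and 2 higher and 3 lower with NTX-301 (3 higher and 1 lower after quantile normalization). Of all genes in that line 24.2% were called with DAC and 37.4% with NTX-301. EHMT1, the partner enzyme of EHMT2, fell there by 0.23 and 0.15, and LIG1, the replicative ligase that recruits UHRF1, rose by 0.25 with NTX-301.

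The next list held 9 genes of methyl-CpG reader families. It goes by protein family, so MBD3, MBD5 and MBD6 are in it whether or not they read the mark. Its counts stand against the shares of all genes given above. With DAC in HL-60 1 rose and 1 fell (2 and 1 after median centring, 3 and 1 after quantile normalization). With NTX-301 4 rose there, among them MBD2 at 0.19 and MBD1 at 0.12. In MOLM-13 1 rose and 3 fell with DAC and 2 rose and 2 fell with NTX-301 (2 and 1 after quantile normalization). MBD6 rose there by 0.36 and 0.38, and ZBTB33, the reader Kaiso, fell by 0.28 and 0.27. Among de novo partners and cytidine deaminases DNMT3L was not listed in either line, and APOBEC3B and APOBEC3G were not listed in HL-60. Of the 4 listed in HL-60 1 fell with DAC and 1 rose with NTX-301 (after median centring none rose and 1 fell). The deaminase APOBEC3C fell by 0.32 with DAC in HL-60 and rose by 0.22 and 0.40 in MOLM-13, where 2 of 6 listed genes rose with DAC, 5 rose with NTX-301 and none fell (1 rose and 1 fell with DAC after median centring). APOBEC3B rose there by 0.28 with NTX-301.

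Other base excision genes, further glycosylases and later steps included, were measured at 12 of 13, GADD45G being unlisted. In HL-60 4 fell with DAC and none rose, and with NTX-301 4 fell and 1 rose (4 and 2 after quantile normalization), with LIG3 at -0.18 and APEX1 at -0.20. In MOLM-13 5 fell with each drug while 2 rose with DAC and 1 with NTX-301 (2 each way with NTX-301 after quantile normalization). UNG, which removes uracil from DNA, fell by 0.43 and 0.45 there, and GADD45A, a stress gene linked to demethylation, rose by 0.37 and 0.44.

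The TET partners and 2-oxoglutarate enzymes included IDH1, which makes the 2-oxoglutarate that the TET enzymes consume. It rose by 0.10 with DAC in HL-60 and fell by 0.17 with DAC and 0.24 with NTX-301 in MOLM-13. CXXC5, which binds unmethylated CpG and TET2, rose by 0.40 with NTX-301 in HL-60. Of 8 listed genes in HL-60 4 rose and 1 fell with DAC and 2 rose and 1 fell with NTX-301 (2 and 2 after median centring, 3 and 0 after quantile normalization), and of 6 in MOLM-13 2 rose and 3 fell with each drug (0 and 3 with DAC after median centring). In the supply of methyl donors 3 of 8 genes fell and 1 rose with DAC in HL-60 and 5 fell and none rose with NTX-301 (3 and 2 after quantile normalization), with MAT2A, the S-adenosylmethionine synthase, at -0.099 and -0.19. In MOLM-13 6 of 8 fell and 1 rose with each drug (2 and 1 after quantile normalization, 7 and 0 after median centring), with the folate enzyme SHMT2 at -0.24 and -0.36 and MTHFD2 at -0.22 and -0.41.

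**Figure D4:**
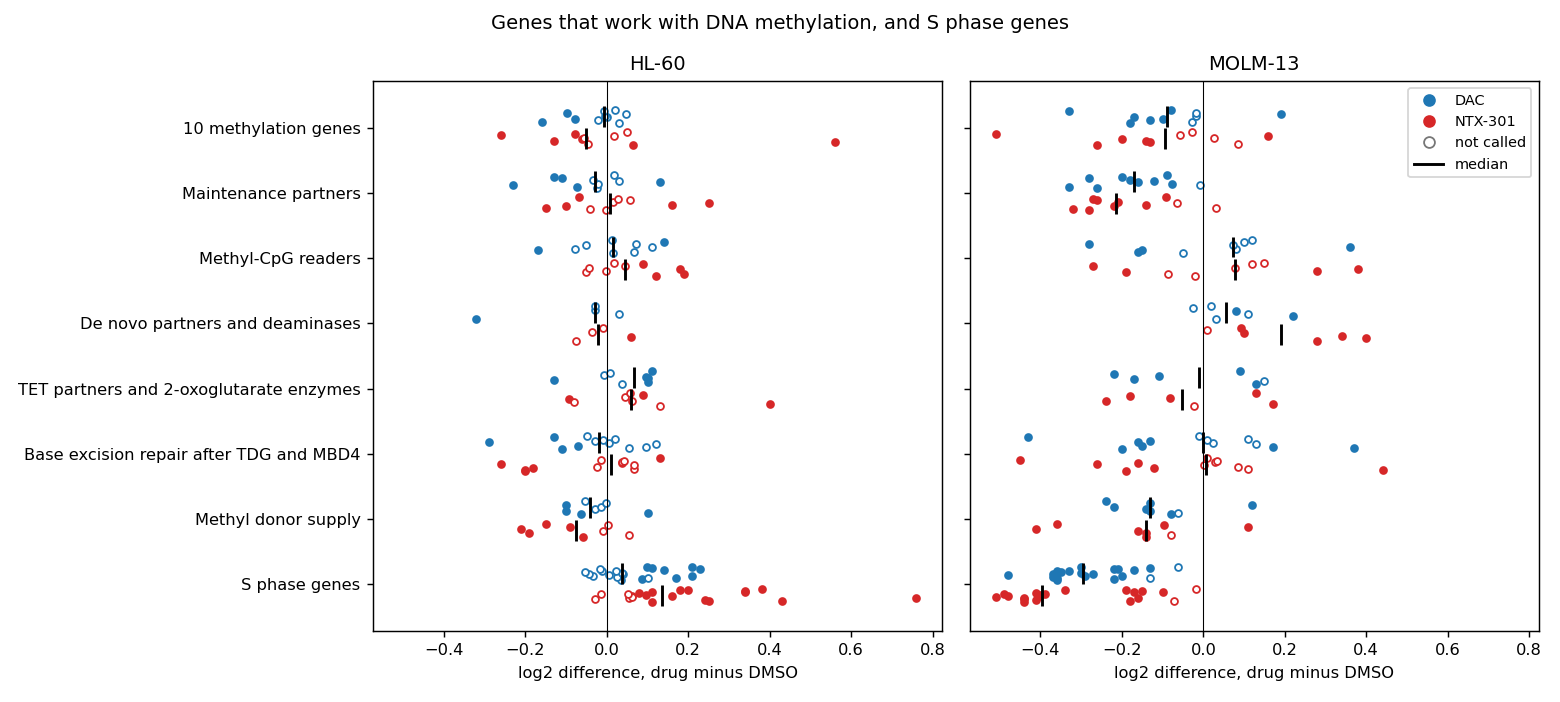
Log2 difference between drug and DMSO (horizontal axis) of every gene of the 10 methylation genes and of 7 further lists in HL-60 (left) and MOLM-13 (right), with DAC in blue, NTX-301 in red, filled points for an adjusted p under 0.05 and black bars for medians. Medians of the S phase row lie right of 0 in HL-60 (0.038 and 0.14), whereas every point of that row lies left of 0 in MOLM-13 (medians -0.29 and -0.39).

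Profiles over the 9 samples of a line were compared with those of all genes, after centring each gene on its mean, by the root mean square difference in log2 units. For DNMT3B in HL-60 the closest of 17046 genes were CD86 (0.039), FGD3 (0.044) and ADCY3 (0.054), and CD86, which encodes a costimulatory receptor ligand, had a DAC difference of -0.039 and an NTX-301 difference of 0.52. For TET3 in HL-60 they were PIK3CD (0.019), CARM1 (0.02) and ACACA (0.022). For DNMT1 in MOLM-13 the closest of 17475 genes were SLC7A1 (0.02), CDCA3 (0.022) and TIMELESS (0.023). For UHRF1 in MOLM-13 they were its own pseudogene LOC728688 (0.025), SLC38A5 (0.031) and PSAT1 (0.032). These are descriptions without a test.

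Per kilobase of the longest RefSeq-matched transcript of GENCODE 29, the genes differed widely in level within a line. In HL-60 with DMSO the log2 level per kilobase ran from DNMT1 at 11.87 through UHRF1 at 11.77, UHRF2 at 11.61, MBD4 at 11.36, TDG at 10.61, TET3 at 9.9, TET2 at 9.77, TET1 at 7.33 and DNMT3B at 6.35 to DNMT3A at 6.06. In MOLM-13 with DMSO it ran from UHRF1 at 12.19 through DNMT1 at 12.1, UHRF2 at 11.44, MBD4 at 11.2, TDG at 11.08, TET3 at 9.47, TET2 at 9.27, DNMT3B at 8.54 and DNMT3A at 7.72 to TET1 at 6.67. DNMT1 and UHRF1 headed both orders, and the de novo enzymes and TET1 closed them. Each gap between neighbours exceeded the sum of their SDs, the narrowest being 0.09 against 0.078 for UHRF1 and DNMT1 in MOLM-13. These SDs hold the spread of replicates only, and whether the deposited values already allow for length is not given. The order rests on the transcript chosen: with the shortest matched transcript UHRF1 was first in both lines, and DNMT3A rose to 8.48 in HL-60 and 10.14 in MOLM-13, above TET3 and TET2 in the latter. MBD4 then stood above UHRF2 in HL-60 (11.92 against 11.61) and MOLM-13 (11.76 against 11.44).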

How the data were processed

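RNA of 18 samples was sequenced from libraries made with a stranded total RNA kit. The authors deposited 1 normalized log2 value per gene and sample; the unit is read from the values, and the normalization method is not given in the sources used here. Per the submitters' processing notes, FastQC, Trimmomatic 0.38, HISAT2 and StringTie were used with the hg19 build; their roles and the use of strand in counting are not given. The value columns were used as deposited, and the lists of genes of the 2 lines differ, so each line was taken as normalized apart. Low genes varied least between samples, as if drawn towards their mean, which would compress their fold changes. The median range over 9 samples was 0.021 for HL-60 genes with a mean from 0 to 3 and 0.23 for those from 8 to 10 (0.027 and 0.29 in MOLM-13). Precision rests on the spread of 3 replicates.

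Group means were compared with limma 3.58.1 in R 4.3.3 (lmFit and two-sided eBayes tests, with the prior variance following the mean), with the 9 samples of a line in 1 fit, or all 18 for differences between lines. The tests covered genes that reached a linear value of 1 in 3 or more samples. On simulated data with independent normal noise the fit returned the within-line changes put in. That checks the code and not the p-values of these samples. Alternatives were no trend, a robust prior, only the groups compared, median centring, quantile normalization, no filter, a mean of at least 6, a replicate block, leaving out each sample, and, chosen after seeing the data, UHRF1 summed with its pseudogene. The 10 genes and all lists were chosen with earlier results of these data known. Named genes are the 10, the 2 of each list with the lowest adjusted p per drug and line, and the 3 closest profiles of each of the 10 with a called change of at least 0.25. Promoter windows and names come from RefSeq (GRCh38.p14), since the files give no coordinates.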

Additional observations from a re-analysis of the deposited data

Results flagged for a closer look

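For 15 values the effect of a drug differed between MOLM-13 and HL-60 by a test of the difference itself in 1 limma fit of 18 samples. Dose and line cannot be told apart in any of them.

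The effect of DAC was lower in MOLM-13 for DNMT1 by -0.21 (limma adjusted p = 5.04e-05), for UHRF1 by -0.32 (1.73e-06), for UHRF2 by -0.10 (0.0251) and for TDG by -0.17 (0.00237). For TET2 it was higher by 0.14 (0.0112). The UHRF2 value is the difference of a change of -0.08 in MOLM-13 and 0.021 in HL-60, and it was not called in 7 of 26 alternatives: after quantile normalization (-0.027), with the replicate block, and without any 1 of HL-60 DMSO replicate 3, HL-60 DAC replicate 1, MOLM-13 DMSO replicate 1 and MOLM-13 DAC replicates 2 and 3 (-0.096 to -0.084). The TET2 value was not called after median centring (0.11, adjusted p = 0.0654).

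The effect of NTX-301 was lower in MOLM-13 for DNMT1 by -0.32 (limma adjusted p = 1.86e-07), for DNMT3B by -0.70 (1.07e-07), for UHRF1 by -0.43 (2.27e-08) and for TDG by -0.14 (0.00776). It was higher for TET2 by 0.14 (0.00825) and for TET3 by 0.21 (0.000337). The TDG value was not called after quantile normalization (-0.084, adjusted p = 0.0582). DNMT3B had called changes of opposite sign, a rise of 0.56 in HL-60 against -0.13 in MOLM-13, and so did DNMT1, with 0.064 against -0.26. The smaller change of each gene did not hold throughout. The DNMT1 rise in HL-60 was not called in 7 of 17 alternatives (limma adjusted p up to 0.18). The DNMT3B fall in MOLM-13 was not called in 3 of 17 (limma adjusted p up to 0.0965).

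The step from DAC to NTX-301 was lower in MOLM-13 for DNMT1 by -0.11 (limma adjusted p = 0.0171), for DNMT3B by -0.59 (5.11e-06) and for UHRF1 by -0.11 (0.0428), and higher for TET3 by 0.13 (0.0319). The UHRF1 value was not called in 13 of 27 alternatives, 1 of them with its pseudogene summed (-0.10, adjusted p = 0.051). It was lost without any 1 of HL-60 DAC replicates 1, 2 and 3, HL-60 NTX-301 replicates 2 and 3, MOLM-13 DMSO replicate 3, MOLM-13 DAC replicate 2 and MOLM-13 NTX-301 replicates 2 and 3 (-0.11 to -0.088). The TET3 value was not called in 7 of 26, after quantile normalization (0.11) and without any 1 of HL-60 DAC replicates 1, 2 and 3, HL-60 NTX-301 replicate 3, MOLM-13 DAC replicate 1 and MOLM-13 NTX-301 replicate 3 (0.10 to 0.13, adjusted p up to 0.0903). The DNMT1 value was not called after median centring (-0.077, adjusted p = 0.0786).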

How the results depend on the processing

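Of 27 calls between treatments 15 held under every alternative run, and of 15 line differences 9. Those that held were, in HL-60, TET3 with DAC, DNMT3B, TET3 and MBD4 with NTX-301, and DNMT3B and TET3 between the drugs; in MOLM-13, DNMT1, UHRF1, TET2 and TDG with each drug and UHRF1 between them. When single samples were left out, the number of genes called ranged from 1 to 3 for DAC and 3 to 6 for NTX-301 against DMSO in HL-60, 2 to 4 between the drugs there, 4 to 7 for DAC in MOLM-13, 1 to 2 between the drugs there, and 2 to 4 for the line difference of the step between drugs. That last count was also 2 after median centring, and the MOLM-13 count between drugs was 2 with quantile normalization and with the stricter filter.

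Values that changed sign were small. Under median centring TDG with DAC in HL-60 was 0.00079, TET2 with NTX-301 in HL-60 -0.01, UHRF2 between the drugs in HL-60 -0.0015, TET1 with NTX-301 in MOLM-13 -0.0051 and DNMT3B between the drugs in MOLM-13 0.0023. Under quantile normalization TET1 and TDG with DAC in HL-60 were 0.012 and 0.019, UHRF2 and TET3 in MOLM-13 0.0027 and 0.064 with DAC and 0.078 and 0.042 with NTX-301, TET1 with NTX-301 in MOLM-13 -0.0058, DNMT3B between the drugs there 0.0081, and the UHRF2 line difference for NTX-301 0.0041. Leaving out samples in HL-60 with DAC gave TDG -0.0085 to 0.01, TET1 -0.018 to 0.0049, UHRF1 -0.031 to 0.011 and DNMT3B -0.053 to 0.03. In MOLM-13 it gave TET3 -0.047 to 0.014 and TET1 -0.056 to 0.019 with DAC, TET1 -0.0071 to 0.081 with NTX-301, and DNMT3B -0.03 to 0.018 and TDG -0.061 to 0.0079 between the drugs. Of these, UHRF2 with each drug, TET3 with NTX-301 in MOLM-13 and the UHRF2 line difference were called under at least 1 setting. The cause was not tested.

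Replicate numbers gave no clear pairing of the samples, but a pairing in HL-60 is not excluded. The correlation of deviations exceeded 0.1 in 4 of 9 same-numbered pairs in HL-60 (-0.09 to 0.14) and in 0 of 9 in MOLM-13 (-0.21 to 0.08). Among HL-60 pairs with different numbers (-0.16 to 0.14) only DMSO replicate 3 with DAC replicate 1 exceeded 0.1. In MOLM-13 such pairs ran from -0.12 to 0.21. In both lines there were samples that correlated better with another number than with their own. A replicate block removed 5 calls and added 0: TDG in HL-60 with NTX-301 against DMSO (limma adjusted p = 0.0544) and against DAC (0.0642), UHRF2 in MOLM-13 with DAC (0.0722), and the line differences of UHRF2 for DAC (0.0534) and of UHRF1 for the step between drugs (0.0629). The counts with the block were 3, 5, 3, 6, 6 and 1 within lines and 4, 6 and 3 between them, against 3, 6, 4, 7, 6 and 1 and 5, 6 and 4 without it. With read depth unknown, no limit of detection can be given, and leaving out 1 sample leaves groups of 2.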
